A study of Drosophila melanogaster with 3 samples.

Results

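The genes described here are 82 protein-coding genes of Drosophila melanogaster that encode cytoplasmic ribosomal proteins, 36 of the small subunit and 46 of the large subunit. They were counted among 13945 protein-coding genes on 2L, 2R, 3L, 3R, X and chromosome 4. They were taken from the Ensembl annotation of assembly BDGP6 by symbol (RpL, RpS or RpLP, a number and at most 1 letter), with stubarista (sta) added. RpL10Ab, RpL37-1 and RpS15Aa fall outside this rule and were counted among the other genes. The alternative symbol sop is not used in that annotation, where the gene is listed as RpS2. The rule reads symbols only, and it was set with earlier results of these data known. Chromatin immunoprecipitation followed by sequencing (ChIP-seq) had been carried out on whole embryos aged 8 to 24 hours of the strain sr-GFP, a transgenic line with an insertion that targets the gene stripe (sr), so that the embryos express Stripe as a fusion to eGFP. Per the description in the labels an antibody against GFP was used, whereas the antibody entry reads sr. The 3 libraries are biological replicates of this single group, without a second genotype, stage or tissue, and all values therefore come from mixed cells of whole embryos.

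Stripe is a transcription factor with zinc fingers of the EGR type, known for directing the differentiation of tendon cells in the fly embryo. Ribosomal proteins are the protein part of the machine that translates messenger RNA, and their genes are transcribed at high rates in nearly every growing cell. In the fly, promoters of this class typically start transcription within a pyrimidine-rich initiator called TCT, and rely on the TBP-related factor Trf2 in place of the TATA-binding protein, together with Dref, which binds the DNA replication-related element (DRE), and M1BP, which binds Motif 1.

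A gene was counted as called in a peak list when a peak summit lay within 1000 bp of any of its annotated transcription start sites (TSSs). Each library had a thresholded list, in which every peak had a global IDR (irreproducible discovery rate, which is low where a peak holds its rank in repeated peak calling) of 0.01 or less, and a longer ranked list without that limit. The authors' conservative list was made from all 3 libraries together. On the 6 arms the thresholded lists held 2751, 1678 and 3008 peaks in replicates 1, 2 and 3, and the conservative list held 4041. The sr locus itself was called in every one of these lists, with a summit at −269 to −263 bp from a TSS and signal values of 156, 166 and 209 in replicates 1, 2 and 3. Read totals are not given in the files, so the sequencing depth is unknown, and the number of peaks and genes limits the precision.

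The promoter sequences of 8 genes with some of the strongest peaks are shown first, because the summits described below fall on them or, for RpL7 and RpS4, just downstream of the stretch shown. Each runs from 70 bases before the main TSS to 20 bases from the TSS onward, 5′ to 3′ on the strand of the gene, read from the RefSeq genome sequence of Release 6, whose coordinates are those of dm6. Capitals mark a TCT initiator (TCTTT or CCTTT with its C within 5 bases of the TSS), Motif 1 (GGTCACAC) or a DRE (TATCGATA), the last 2 on either strand. They were RpS27 from chr3R:25247495-25247584 on the minus strand, RpL7 from chr2L:10200934-10201023 on the plus strand, RpS28b from chrX:9554553-9554642 on the plus strand, RpL24 from chr2L:13395073-13395162 on the minus strand, RpL14 from chr3L:8600936-8601025 on the plus strand, RpL23A from chr3L:1668635-1668724 on the minus strand, RpS4 from chr3L:13041686-13041775 on the plus strand and RpL30 from chr2L:19009218-19009307 on the minus strand.
RpS27: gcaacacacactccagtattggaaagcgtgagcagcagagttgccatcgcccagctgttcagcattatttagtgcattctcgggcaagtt
RpL7: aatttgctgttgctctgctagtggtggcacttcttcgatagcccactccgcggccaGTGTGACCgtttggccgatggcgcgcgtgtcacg
RpS28b: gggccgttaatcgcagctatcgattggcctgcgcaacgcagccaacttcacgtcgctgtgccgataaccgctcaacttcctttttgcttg
RpL24: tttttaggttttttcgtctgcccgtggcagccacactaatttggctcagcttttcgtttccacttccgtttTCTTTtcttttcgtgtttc
RpL14: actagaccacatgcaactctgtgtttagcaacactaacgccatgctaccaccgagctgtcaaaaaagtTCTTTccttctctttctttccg
RpL23A: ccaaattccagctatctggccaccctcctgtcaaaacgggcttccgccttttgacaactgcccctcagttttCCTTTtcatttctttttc
RpS4: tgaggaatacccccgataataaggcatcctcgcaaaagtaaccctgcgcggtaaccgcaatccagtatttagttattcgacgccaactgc
RpL30: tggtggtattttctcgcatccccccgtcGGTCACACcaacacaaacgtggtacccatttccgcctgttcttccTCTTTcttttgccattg
The first sequence, at the strongest peak of the family, held none of these motifs within the stretch shown. RpL24, RpL14, RpL23A and RpL30 had the initiator in capitals, and RpL7 and RpL30 had Motif 1.

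Most of the family carried a Stripe-eGFP peak. In the conservative list 55 of the 82 genes were called, 67.1% (Wilson 95% interval 56.3 to 76.3, covering counting error only), against 15.2% of all protein-coding genes. In the thresholded lists 48 genes were called in replicate 1 (58.5%, against 10.8% of all genes), 29 in replicate 2 (35.4%, against 6.9%) and 46 in replicate 3 (56.1%, against 12.4%). The mean share was 50% ± 12.7 (SD, n = 3 libraries). Every library called 28 of the genes, 34.1%, against 5.28% of all genes. Replicate 2, which called the fewest members, also had the shortest list, and the part of list length in its lower count was not tested.

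The spread was wide among the 55 genes of the conservative list. All 3 libraries called 28 of them, 13 were called in 2 libraries, 7 in 1 library and 7 in none. Another 4 genes, all of the small subunit and among them RpS7, RpS19b and RpS27A, were called in at least 1 library but not in the conservative list. The remaining 23 genes, 13 of the small and 10 of the large subunit, were called neither in the conservative list nor in a library's thresholded list.

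Peak signals are values the authors assigned, with no normalization stated, and they are used here to describe and rank peaks within a list. The conservative peaks of the ribosomal protein genes had a median signal of 154 (63 to 495) and a median rank at the 70.1 percentile of that list, and the peaks of the 2068 other called genes had a median of 122 and ranked at the 54.4 percentile. Of the 55 genes, 24 ranked above the 80 percentile of the list and 5 at or below the 20 percentile. Of the 2068 other called genes these were 485 and 343. The members were thus spread over the conservative list, with more of them towards the top. In replicates 1, 2 and 3 their median percentiles were 67.9, 64.5 and 70.9, against 54.0, 54.2 and 55.5 for other called genes. Above the 80 percentile of the thresholded lists ranked 10 of 48, 4 of 29 and 17 of 46 members. Of other called genes, 335 of 1452, 210 of 933 and 409 of 1680 did. Members had the larger share there in replicate 3 only.

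RpS27, which encodes a zinc-binding protein of the small subunit, was the highest, with signal values of 161, 129 and 196 in replicates 1, 2 and 3 and a mean rank at the 96.2 percentile. RpL7, of the large subunit, followed with 154, 123 and 183, at the 95.6 percentile. In each replicate these were the highest members. RpS28b, whose protein sits near the exit of the messenger RNA channel, had 106, 100 and 126 (89.6 percentile).

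Of the other 7 genes highest by mean rank among those called in every library, 6 encode proteins of the large subunit. RpL41, which encodes a very short peptide at the interface of the subunits, had signal values of 105, 75.5 and 121 in replicates 1, 2 and 3. RpL14 had 84.2, 71.2 and 139, and RpL24, another protein of the subunit interface, had 102, 61.7 and 141. In these 3 genes replicate 3 was the highest library and replicate 2 the lowest.

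RpL23A, at the exit of the nascent chain tunnel, had signal values of 82.8, 76.2 and 117 in replicates 1, 2 and 3. RpS4 had 95.4, 68.4 and 102, and RpL34b had 71.6, 92.2 and 91.9. RpL8, a protein close to the peptidyl transferase centre, had 71.6, 66.6 and 106. RpL34b was the exception in the order of libraries, with replicate 1 the lowest. Over the 28 genes called in every library, the highest signal was that of replicate 3 in 21, of replicate 1 in 5 and of replicate 2 in 2, and the scaling between libraries is not stated.

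**Figure D1:**
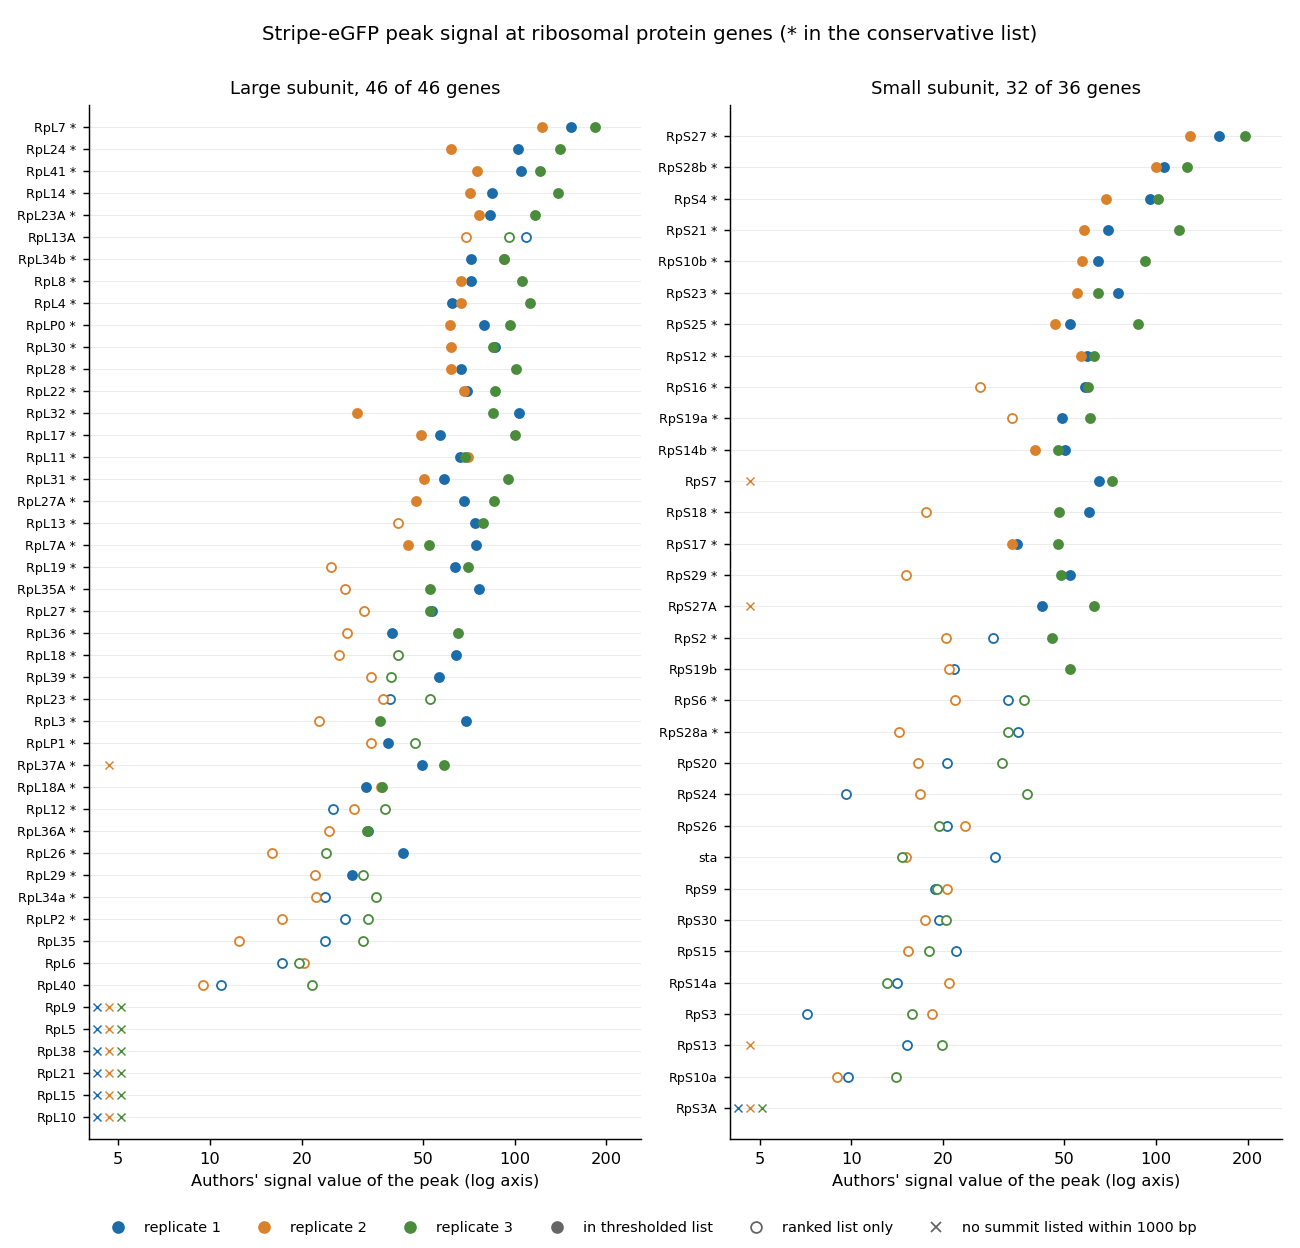
Signal value of the highest peak summit within 1000 bp of a TSS in each library's ranked list, for all 46 large (left) and 32 of 36 small (right) subunit genes, sorted by mean signal, on a log axis. Filled points are in the thresholded list, open points only in the ranked list, crosses at the left edge mark libraries with no listed summit, and an asterisk marks genes of the conservative list; RpL13A has high open points.

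The order of the genes was similar between libraries. Over the 71 members with a ranked summit in every library, Spearman's rho of the signal was 0.81 between replicates 1 and 2, 0.87 between replicates 1 and 3 and 0.88 between replicates 2 and 3. This is a description across genes of 3 libraries that share a strain and a control file, and genes are not independent replicates. The position was stable as well. In the 28 genes called in every library the 3 summits lay within a median range of 19 bp (2 to 50 bp).

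The summits sat on the start site. In the conservative list the median summit of the 55 called members was at −10 bp from the nearest TSS (quartiles −25 and 9, negative being upstream). Of the 55, 44 (80%) were within 50 bp and 52 (94.5%, interval 85.1 to 98.1) within 100 bp of a TSS. Of the 2068 other called genes, 15.6% were within 50 bp and 30.4% within 100 bp. Upstream summits numbered 35 and downstream summits 18, and those of RpS10b and RpS29 fell on the TSS base itself. Members made up 7.64% of the 681 called genes with a summit within 100 bp of a TSS, against 2.59% of all called genes. The 82 members are 0.588% of all protein-coding genes.

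The same held in each library. Within 100 bp of a TSS lay 47 of 48 summits in replicate 1, all 29 in replicate 2 and 45 of 46 in replicate 3. Among other called genes the corresponding shares were 31.7%, 26.6% and 25.6%. The medians of the members were −12, −18 and −15 bp.

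**Figure D2:**
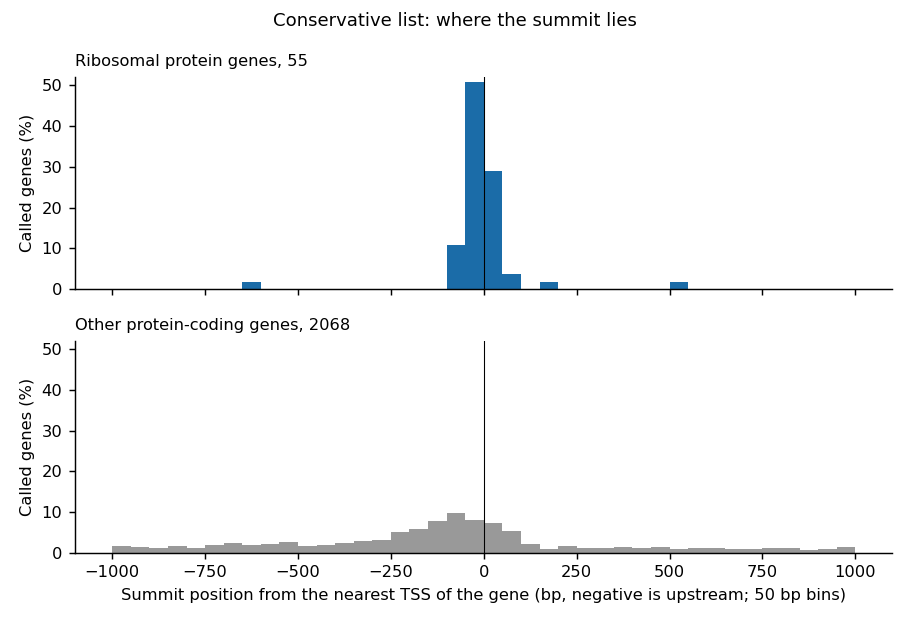
Position of the highest conservative summit relative to the nearest TSS in bp (negative is upstream, 50 bp bins), as a percentage of the 55 called ribosomal protein genes (top) and of the 2068 other called genes (bottom). In the top panel 52 genes lie within 100 bp of the start, and the lower panel is spread over the whole window.

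Only RpL26, RpLP2 and RpS28a had a conservative summit more than 100 bp from a TSS. The summit of RpL26 lay at −624 bp from its TSS and 42 bp from a TSS of CG3902. That of RpS28a lay 528 bp downstream and 101 bp from a TSS of Mgat2, a glycosyltransferase gene. These were the only 2 members whose summit was nearer to the TSS of another gene. RpLP2 had its summit at 150 bp downstream.

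Fly genes are packed closely, and many of the summits also served a neighbour. Under the same window 39 other genes were called through the very summit of one of 37 members, and in 37 of the 39 cases the member's TSS was the nearer one. The summit of RpL13 lay at −5 bp from its own start and at −79 bp from that of Dref, the gene of the DRE-binding factor, which is transcribed in the opposite direction. That of RpL14 lay at −16 bp from RpL14 and at −111 bp from Nelf-E, a subunit of the negative elongation factor. The summit of RpS27 lay at −140 bp from the nucleoporin gene Nup37, and that of RpL7 at −53 bp from Ripalpha. A TSS on the opposite strand within 500 bp was annotated for 25 of the 55 called and 7 of the 27 not called members.

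The subunits were then compared. In the conservative list 36 of 46 large subunit genes (78.3%, interval 64.4 to 87.7) and 19 of 36 small subunit genes (52.8%, interval 37.0 to 68.0) were called. The thresholded lists called 31, 18 and 27 large subunit genes in replicates 1, 2 and 3, and 17, 11 and 19 small subunit genes. The small subunit share was lower in each of the 3 libraries, with differences, small minus large, of −20.2, −8.57 and −5.92 percentage points. The mean difference was −11.6 points ± 7.58 (SD, n = 3 libraries). The exact two-sided sign-flip permutation test gave p = 0.25, the smallest that 3 libraries allow, so this design cannot pass a threshold of 0.05. In the authors' longest list the gap was narrower, with 34 of 46 (73.9%) against 24 of 36 (66.7%). In the full ranked lists, without an IDR limit, the order was reversed. There the small subunit shares were 97.2%, 88.9% and 97.2% in replicates 1, 2 and 3, and the large subunit shares 87%, 84.8% and 87%.

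Called genes of the large subunit also ranked higher. Their median conservative signal was 180 at the 77.4 percentile, against 139 at the 63.8 percentile for the small subunit. Above the 80 percentile of the list ranked 18 of the 36 large and 6 of the 19 small subunit genes. The highest peak of all was nevertheless that of a small subunit gene, RpS27. Within 100 bp of a TSS lay 34 of 36 large and 18 of 19 small subunit summits.

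The acidic stalk of the large subunit, which recruits elongation factors, is formed by the products of RpLP0, RpLP1 and RpLP2. RpLP0, the base of the stalk, was called in every library with signal values of 79.1, 61.1 and 96.7. RpLP1 was called in the conservative list and in replicate 1, with ranked signal values of 38.3, 33.9 and 46.9. RpLP2 was called in the conservative list and in no library, with 27.8, 17.2 and 33.1. In each of the 3 replicates RpLP0 was the highest of these genes and RpLP2 the lowest.

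**Figure D3:**
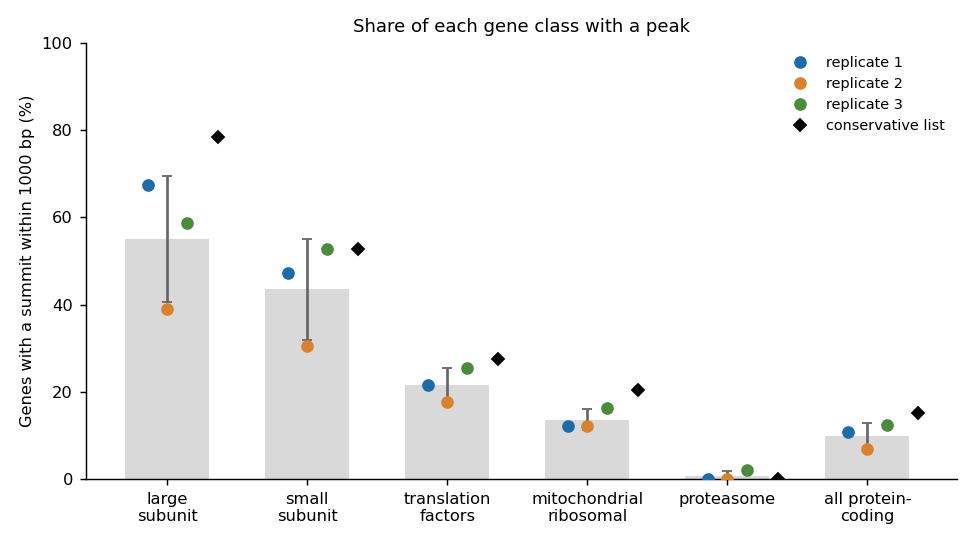
Percentage of genes with a summit within 1000 bp of a TSS by gene class: bars are means over the 3 libraries with SD, coloured points the single thresholded lists and black diamonds the conservative list. The large subunit lies above the small subunit in each library, and both lie above the other classes.

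Several ribosomal proteins are encoded by a pair of genes, and these pairs allow a comparison between genes that encode nearly the same protein. Described here are 5 such pairs. In 3 of them only 1 copy was in the conservative list, and in the other 2, RpL34 and RpS28, both were. In all 5 pairs the same copy had the higher ranked signal in replicates 1, 2 and 3. The copies with the higher signal were RpL34b, RpS10b, RpS14b, RpS19a and RpS28b, all called in at least 2 libraries. Ranked signal is that of the highest summit within 1000 bp of a TSS. In each of the other copies this summit lay away from the start in at least 1 library, so it need not be promoter signal.

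RpS10b had ranked signal values of 64.6, 57.3 and 92.1 in replicates 1, 2 and 3, and RpS10a had 9.74, 8.98 and 14.1. The ranked summits of RpS10a lay at −238, −449 and 292 bp from its TSS. RpS28b stood at 106, 100 and 126, and RpS28a at 35.3, 14.3 and 32.7, with RpS28a summits at 566, −541 and 527 bp. The values of the copies did not overlap in either pair. RpS10a and RpS19b are known for expression in the germ line.

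RpS14a and RpS14b lie side by side on the X chromosome, with main TSSs at 7933742 and 7934898. RpS14b had 50.1, 40.1 and 47.5 in replicates 1, 2 and 3, with its conservative summit at −58 bp, and RpS14a had 14.1, 20.9 and 13.1. The ranked summits of RpS14a lay at −651, 16 and −2 bp from its TSS. RpL34b had 71.6, 92.2 and 91.9, and RpL34a had 23.8, 22.3 and 35.1, with RpL34a summits at −12, −845 and −15 bp. RpS19a had 49, 33.7 and 60.7, and RpS19b had 21.7, 20.9 and 52.1. RpS19b passed the threshold in replicate 3 only, with a summit at −894 bp. Its ranked summits in replicates 1 and 2 lay at 361 and −926 bp. The ranges of RpS19a and RpS19b overlap across libraries, whereas in each library RpS19a was the higher.

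Paired promoters are shown for 2 of these pairs, the higher copy first, in the same frame and with the same capitals as above. They were RpL34b from chr3R:9401207-9401296 on the minus strand, RpL34a from chr3R:26059248-26059337 on the minus strand, RpS14b from chrX:7934828-7934917 on the plus strand and RpS14a from chrX:7933672-7933761 on the plus strand.
RpL34b: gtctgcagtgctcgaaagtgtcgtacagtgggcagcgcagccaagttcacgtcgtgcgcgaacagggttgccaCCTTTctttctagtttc
RpL34a: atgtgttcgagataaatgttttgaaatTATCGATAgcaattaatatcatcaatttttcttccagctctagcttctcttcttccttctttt
RpS14b: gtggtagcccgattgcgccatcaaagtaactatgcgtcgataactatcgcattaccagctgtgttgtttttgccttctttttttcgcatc
RpS14a: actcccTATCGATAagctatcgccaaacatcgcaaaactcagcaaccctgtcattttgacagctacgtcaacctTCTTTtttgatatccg
In both pairs the DRE stood in the copy with the lower signal, RpL34a and RpS14a. In the RpS10 pair, not shown, the promoter window held a DRE in RpS10b, the higher copy, and not in RpS10a. The TCT initiator stood in RpL34b, the higher copy, and in RpS14a, the lower one.

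**Figure D4:**
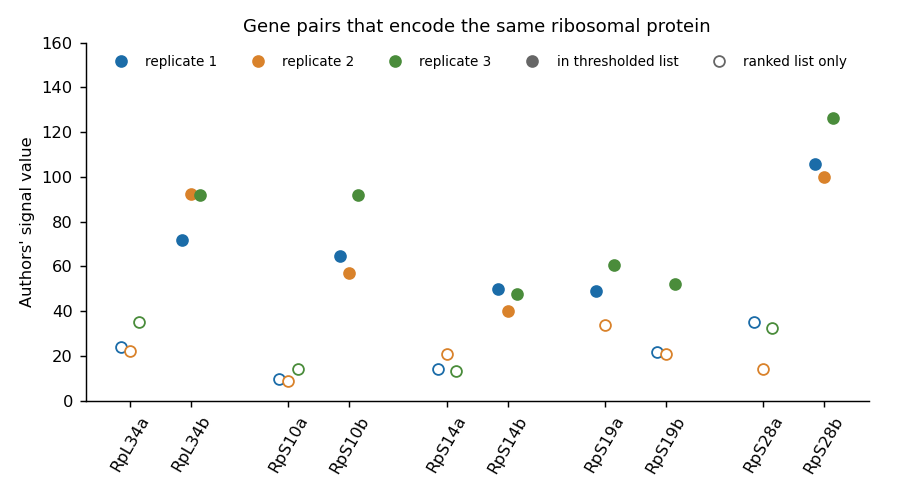
Signal value of the highest ranked summit within 1000 bp of a TSS in replicates 1, 2 and 3, for both copies of 5 gene pairs. The copies of a pair encode the same ribosomal protein, and filled points passed the threshold of their library. In each pair 1 copy is the higher in every replicate, and in the RpS19 pair the ranges overlap.

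The genes without a call differed among themselves. Of the 23 called neither in the conservative list nor in a library, 15 had a ranked summit within 1000 bp in every library. Leaving out RpL13A, the other 14 of these had median ranked signals of 18, 16.7 and 19.3 in replicates 1, 2 and 3, and none exceeded 37.7. They included RpS3, at the messenger RNA entry, with 7.12, 18.3 and 15.8, RpS20 with 20.6, 16.6 and 31.3, and sta, the fly homologue of the laminin receptor protein RPSA, with 29.6, 15.1 and 14.6. The 55 genes of the conservative list had ranked medians of 60.1, 40.8 and 62.7. The authors' longest list did call RpS20, RpS24 and sta. The 7 genes called in the conservative list but in no library lay between, with medians of 27.8, 22.3 and 35.1. Among them were RpL12, RpL23, RpL34a, RpLP2, RpS6 and RpS28a, of which RpS6 encodes the substrate of the S6 kinase. These 7 genes are part of the 55. The groups were formed by calls made in the same libraries, so the order of their medians follows in part from the grouping.

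RpL13A stood apart. Its ranked signal values of 109, 69.2 and 96 in replicates 1, 2 and 3 would place it among the strongest members, and its global IDR was 0.01 or less in all 3, yet it was in none of the thresholded lists used here. It was not unique in that respect: 96, 70 and 101 ranked peaks with a global IDR of 0.01 or less on the 6 arms were not in the thresholded lists. Counting calls from the ranked lists at this limit, the mean share of members called became 51.2%, and 29 were called in every library. The share of all genes was not computed for this count.

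Another 7 genes had no ranked summit within 1000 bp in any library: RpL5, RpL9, RpL10, RpL15, RpL21 and RpL38 of the large subunit and RpS3A of the small subunit. For RpL9 the nearest listed summit was 1167, 1680 and 3163 bp away in replicates 1, 2 and 3, and for RpL10 it was 69347, 16939 and 17666 bp away. RpS3A is the only member on chromosome 4, and the ranked lists held 29, 33 and 28 peaks on that chromosome in all. Of all protein-coding genes, 79.2%, 78.1% and 81.1% had a ranked summit within the window in replicates 1, 2 and 3, and 75, 71 and 75 of the 82 members did.

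In 4 more genes, RpL37A, RpS7, RpS13 and RpS27A, the summit was missing from replicate 2 alone. RpS7 had 64.8 and 71.4 in replicates 1 and 3, while its nearest ranked summit in replicate 2 was 5314 bp away. RpS27A, which encodes a fusion of ubiquitin and a small subunit protein, had 42.2 and 62.5. RpL37A had 49.6 and 58.5 and was in the conservative list. A gene for which a list holds no summit was not measured at 0, since only peaks are listed.

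A pair of uncalled promoters with opposite records is shown beside RpS3, in the frame used above. RpL9 had no listed summit in any library and RpL13A had strong ranked peaks in all of them. They were RpL9 from chr2L:11004134-11004223 on the minus strand, RpL13A from chr3R:5624404-5624493 on the plus strand and RpS3 from chr3R:23358742-23358831 on the plus strand.
RpL9: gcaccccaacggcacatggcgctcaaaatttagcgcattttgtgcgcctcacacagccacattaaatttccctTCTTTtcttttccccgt
RpL13A: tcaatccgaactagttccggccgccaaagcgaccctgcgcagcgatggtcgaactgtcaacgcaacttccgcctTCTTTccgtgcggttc
RpS3: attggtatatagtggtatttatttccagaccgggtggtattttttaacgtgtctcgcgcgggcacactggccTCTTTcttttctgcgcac
All 3 had a TCT initiator, as had RpL24, RpL14, RpL23A and RpL30 among the strong peaks shown above. RpS27, RpL7, RpS28b and RpS4 had none within 5 bases of the main TSS, nor had the uncalled RpL10 and RpS20.

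Sequence motifs were searched within 100 bp of the highest conservative summit of each called gene. A summit shared by several genes was counted for each of them, also where a member and another gene shared it. The intervals do not account for this. The EGR core (GTGGGCG or GTGGGTG on either strand), the recognition core of EGR-type zinc fingers, was found at 3 of the 55 members, 5.45% (interval 1.87 to 14.9), and at 618 of the 2068 other called genes, 29.9% (27.9 to 31.9). Since other summits lie farther from the start, both groups were also restricted to summits within 100 bp of a TSS, a restriction added after seeing the data. The core was then found at 2 of 52 members (3.85%, interval 1.06 to 13.0) and at 117 of 629 other genes (18.6%, interval 15.8 to 21.8). The 3 genes with the core were RpL23, RpL30 and RpLP2, all of the large subunit, and RpL30 was the only one of them called in every library.

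The core of RpL30 lay 36 bp downstream of its main TSS and 55 bp from the summit. The stretch chr2L:19009188-19009214 is shown on the minus strand, that of the gene, with the core in capitals.
RpL30 core: gccgacgaagGTGGGTGttttaatttt
RpL30, which encodes a protein of the large subunit, had signal values of 86.3, 62 and 84.8 in replicates 1, 2 and 3, within the range of the other members called in every library.

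Shares of other promoter motifs were set side by side, again for summits within 100 bp of a TSS. The DRE was found at 14 of 52 members (26.9%, interval 16.8 to 40.3) and 6.84% of other genes. Motif 1 was found at 9 of 52 (17.3%, interval 9.38 to 29.7) and 6.68% of other genes. The E-box CACGTG, the site of Myc and Max, was found at 7 of 52 (13.5%) and 3.34% of other genes. GAGA, the site of the GAGA factor encoded by Trl, was found at 7 of 52 (13.5%, interval 6.68 to 25.3) and 35.8% of other genes. The TATA box (TATAAA on the gene strand) was found at 3 of 52 (5.77%, interval 1.98 to 15.6) and 13.5% of other genes (11.1 to 16.4), and these intervals overlap. These shares describe letters in a window of the reference sequence and say nothing on occupancy by the named factors.

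**Figure D5:**
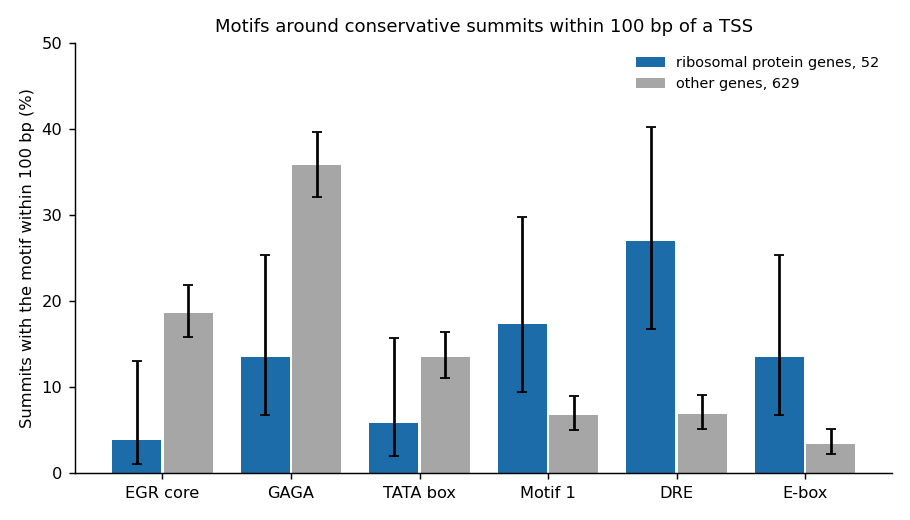
Percentage of called genes whose highest conservative summit, within 100 bp of a TSS, holds each motif within 100 bp, for 52 ribosomal protein genes and 629 other genes. A summit shared by genes counts for each, so the groups share some summits. Error bars are Wilson 95% intervals covering counting error only. The EGR core and GAGA are the less frequent at ribosomal protein genes, and the DRE, Motif 1 and the E-box the more frequent.

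Among the members, motifs were also compared between the 55 called and the 27 not called genes, in a promoter window from 250 bases before to 50 bases after the main TSS. The EGR core was present in 2 called genes and in none of the 27 others, and in 6.17% of all protein-coding promoters. The DRE was present in 29.1% of called and 22.2% of not called members, and in 9.23% of all promoters. Motif 1 was present in 16.4% and 14.8%, and in 7.79% of all promoters. The E-box was present in 10.9% and 3.7%, and in 4.2% of all promoters. GAGA was present in 21.8% of called and 11.1% of not called members, and in 30.2% of all promoters. The TATA box was present in 38.2% and 29.6%, in 25.6% of other called genes and in 32.1% of all promoters, so in this wider window it was not the less frequent in called members. The intervals of the called and not called members overlapped for each of these motifs.

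The TCT initiator, with its C within 5 bases of the main TSS, was found in 21 of 55 called members (38.2%, interval 26.5 to 51.4) and 16 of 27 not called members (59.3%, interval 40.7 to 75.5), against 2.19% of all genes. This difference depended on the start site used. With the TSS nearest to the summit, or the most 5′ one where there was no summit, the shares were 40% and 40.7%. Allowing the initiator within 20 bases of the main TSS, a setting added after seeing the data, gave 74.5% of called and 70.4% of not called members, against 8.58% of all genes. Both within 5 and within 20 bases of the main TSS, the initiator was more frequent in members than in all genes, with and without a peak.

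Gene structure was also set side by side. Called members had a median length of 1356 bp and not called members 1191 bp, against 4953.5 bp for the other called genes and 2166 bp for all protein-coding genes. Annotated TSSs numbered a median of 2 in called members and 1 in not called members. The median was 2 in other called genes and 1 in all genes. Only 1 TSS was annotated for 39 of 82 members, 67 of 73 mitochondrial ribosomal protein genes and 10246 of 13945 protein-coding genes. It was 36 of 48 proteasome and 31 of 51 translation factor genes. Counting any TSS gives genes with more TSSs a wider search, and its part in the shares was not tested. Median GC content of the promoter window was 38.3% in called members, 35.3% in not called members and 38.0% in all genes. By arm, 10 of 17 members were called on 2L (14.2% of all genes there), 14 of 17 on 2R (16.8%), 10 of 13 on 3L (16.3%), 11 of 21 on 3R (14.8%) and 10 of 13 on X (14.3%). On chromosome 4 neither the 1 member nor any other of the 80 genes was called.

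Other gene families, taken by symbol, served as a comparison, and their expression was not checked. In the conservative list 14 of 51 translation initiation and elongation factor genes (27.5%), 15 of 73 mitochondrial ribosomal protein genes (20.5%) and 0 of 48 proteasome genes were called. Of the translation factor genes, eIF1 was called through the summit of RpL28, at −357 bp from a TSS of eIF1. The gene eIF6 counts here and also among the biogenesis genes below. With 0 of 48, the upper limit of the Wilson interval was 7.41%. The share of cytoplasmic ribosomal protein genes exceeded that of the mitochondrial ones by 46.2, 23.0 and 39.7 percentage points in replicates 1, 2 and 3, a mean of 36.3 ± 11.9 (SD, n = 3). It exceeded that of the translation factors by 28.4 ± 9.81 points and that of the proteasome genes by 49.3 ± 12.3 points. Each difference had the same sign in 3 of 3 libraries, and the exact two-sided sign-flip permutation test gave p = 0.25 for each, the smallest possible.

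The position of the peaks separated these families too. Of the 15 called mitochondrial ribosomal protein genes, 3 had a conservative summit within 100 bp of a TSS, and the median was −185 bp. Of the 14 called translation factor genes, 8 did, with a median of −40 bp. Their peaks had median percentiles of 69.3 and 71.0, beside 70.1 for the cytoplasmic ribosomal protein genes. The DRE was present in the promoter window of 25% of proteasome genes and 20.5% of mitochondrial ribosomal protein genes, against 26.8% of the 82 members.

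Genes that act on the ribosome before or around its assembly were examined from a list of 26. In the conservative list 5 were called: eIF6, Polr1D, Ns2, Nopp140 and Ns3. The gene eIF6, whose product keeps the large subunit from joining prematurely, had signal values of 125, 137 and 259 in replicates 1, 2 and 3, above those of every ribosomal protein gene in replicates 2 and 3. Polr1D, a subunit of RNA polymerase I, had 110, 71.2 and 123. Ns2, a nucleostemin-type GTPase gene, had 35.7, 33.2 and 52.4.

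The other called biogenesis genes were weaker. Ns3 was called in the conservative list and in no library, with a signal of 52.2, and the nucleolar chaperone gene Nopp140 had a conservative signal of 60.7 and passed in replicate 3. NHP2, of the H/ACA particle, passed in replicates 1 and 3 but not in the conservative list. The remaining 20, among them those of fibrillarin (Fib), Nop56 and Tif-IA, were called neither in the conservative list nor in a library. The share of 5 in 26 stood beside 15.2% of all genes.

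Of 11 listed regulators of growth and of these promoters, 10 were matched by symbol and 8 were called in the conservative list, against 15.2% of all genes. This list was written with earlier results of these data known. The translational repressor gene brat had signal values of 311, 269 and 358 in replicates 1, 2 and 3. Thor, which encodes the 4E-BP that restrains cap-dependent translation downstream of the Tor kinase, had 103, 52.5 and 35.4. Trl, which encodes the GAGA factor, had 57, 38.5 and 41, at differing summits −959, 77 and −297 bp from a TSS. The genes brat, Thor and Trl were called in every library.

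The remaining 5 called regulators were S6k, larp, Trf2, Max and Dref. S6k, the gene of the kinase that phosphorylates RpS6, had a conservative signal of 65.3 and passed in replicate 1. The gene larp, whose product binds messenger RNAs of ribosomal proteins, had a conservative signal of 106 and passed in replicate 3. Max, the partner of Myc, had 65.3 and passed in no library, with a summit nearest to CG42374 and Mettl5. Trf2 had a conservative signal of 110 and passed in replicate 1, with a summit nearest to lawc. Dref was called through the summit of RpL13, as described above. Myc and M1BP were called neither in the conservative list nor in a library.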

How the data were processed

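The peak files were used as the authors deposited them on the assembly dm6. Per the text notes deposited with each library, its ranked and thresholded lists came from its own alignment and a control file common to the 3 libraries, and the conservative and longest lists from the alignments of all 3. The aligner is not given in the sources used here, nor is the peak caller. Reads and control were not analysed here. Peak signals were deposited by the authors without a stated normalization. The ranked lists hold the −log10 of the global IDR as deposited by the authors. Depth is unknown, and intervals (Wilson, 95%) cover counting error only. Per the labels' description, chromatin was sheared in a Bioruptor, and the stated size range is 200 to 800. The age entry of the labels lies far outside the 8 to 24 hours of the sample source and was not used. Other series lists were not used here.

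Genes, TSSs and strands came from Ensembl release 115, whose coordinates matched those of RefSeq in 13944 of 13945 genes. The main TSS was that of the most transcripts, ties going to the most 5′ one. The highest summit within 1000 bp of any TSS of a gene was its peak. Shares were computed per library, and differences between gene classes were tested by the exact two-sided sign-flip permutation test over 3 libraries, with Python 3.11.15, NumPy 2.4.6 and SciPy 1.17.1. Calls, distances and this test were checked on made-up summits with known answers.

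Families were taken by symbol (mRpL and mRpS; Prosalpha, Prosbeta, Rpn and Rpt; eIF and eEF). The members and lists were chosen with earlier results of these data known. Genes were named by rule: the 10 members highest by mean percentile among those called in every library, members with an EGR core at the conservative summit, members without a ranked summit in at least 1 library, members whose conservative and library calls differ (up to 12), both copies of each pair (5 reported), called members with a summit nearer to another gene, and called genes of the other lists. RpL13A, RpL13, RpS3, RpS20, sta and the stalk genes, and the neighbours that share a summit, were named after their values were seen. A few members are not reported here singly and enter the counts only. Alternatives covered the TSS window, the symbol rule, the assignment of summits, the list, the IDR limit, each left-out replicate and the motif window.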

Additional observations from a re-analysis of the deposited data

How the results depend on the processing

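Where the share of all genes was computed, the share of members called stayed above it. The conservative count of 55 members ranged from 43, in the 50% of peaks with the highest signal, to 58 with the longest list and with the wider symbol rule (88 genes). The share of all genes called was 15.2% in the main setting and with the wider rule. It was 8.45% in the 50% of peaks with the highest signal and 18.3% with the longest list. The mean share per library ranged from 39.8% at a global IDR of 0.001 to 57.3% at 0.05, and the number called in every library from 24 to 33 at these limits. Leaving out 1 replicate gave 45.7% to 57.3% and 28 to 42 members, the highest in both without replicate 2. For these IDR limits and left-out replicates the share of all genes was not computed. The small minus large subunit difference stayed negative in every alternative run. It reached −19.8 points at an IDR of 0.001, against −11.6, and ran from −14.4 to −7.25 without a replicate. In the full ranked lists, without an IDR limit, the small subunit share was the higher in each replicate. Members minus mitochondrial ribosomal protein genes stayed positive, at 31.3 to 42.9 points without a replicate. The TCT share of called members moved from 38.2% to 74.5% when the initiator was allowed within 20 bases of the TSS, by construction a wider search. With the promoter window starting 100 in place of 250 bases before the TSS, GAGA moved from 21.8% to 10.9% and the TATA box from 38.2% to 5.45% of called members. In not called members GAGA moved from 11.1% to 3.7% and the TATA box from 29.6% to 7.41%. For the TATA box the order of called and not called members was thus reversed in the narrower window. No paired analysis was possible because all 3 libraries belong to a single group. The limits are the unknown depth, 3 libraries with a smallest p of 0.25, and lists that hold peaks only.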

Other observations

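The wider symbol rule adds 3 further pairs of gene copies, RpL10Aa and RpL10Ab, RpL37-1 and RpL37-2, and RpS15Aa and RpS15Ab, which lie outside the rule used above. RpL10Ab, RpL37-1 and RpS15Aa were called in the conservative list and in each of the 3 libraries. RpL10Aa, RpL37-2 and RpS15Ab were called in none of them.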
